A study of Mus musculus with 4 samples.

Results

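Chaperones are proteins that hold, fold or unfold other proteins, and co-chaperones steer them. In this array study of mouse skeletal muscle they were taken as the probe sets whose only gene symbol begins with Hspa, Hspb, Hspd, Hspe, Hsph, Hsp90 or Dnaj, begins with Cct or Bag and a digit, or is Cryab, Calr or Canx. This gave 92 probe sets for 62 genes, out of 12422 probe sets on the array that are not controls. Of these, 82 probe sets for 57 genes were bright enough to be tested, out of 9317 probe sets and 6774 genes tested in all. The study holds total RNA of murine skeletal muscle on 4 arrays, 2 with the code J (replicates 1a and 1c) and 2 with the code NJ (replicates 1a and 1d). Every title also carries the code Ctr and gives 0 h as the time. These codes are not spelled out in the labels. Strain, genotype, age and how many animals an array stands for are unknown from the sources used here.

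An HSP70 binds short stretches of an unfolded protein and lets go of them in a cycle driven by ATP. J-domain proteins bring the client and start the cycle, while nucleotide exchange factors, among them HSP110 and several BAG proteins, end it. HSP90 acts later on client proteins such as kinases and myosin, small heat shock proteins keep damaged proteins from clumping, and chaperonins enclose a client in a chamber. Cytosol, mitochondrion and endoplasmic reticulum each have their own set. Muscle makes much use of these proteins, since the Z-disc and the thick filament are under mechanical load and have to be renewed.

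Signals are the deposited linear intensities, in arbitrary units that cannot be compared between probe sets. Differences are J minus NJ of quantile-normalised log2(signal + 32) values, with limma's standard error from 2 arrays per group. This scale understates differences of dim probe sets. The labels do not say that the arrays come from separate animals, so the spread may be technical. The columns differ in number format. Both 1a columns carry full digits and the others 1 decimal. The difference J 1a minus NJ 1a is called the 1a pair, and J 1c minus NJ 1d the 1c-1d pair. Over the 57 tested member genes, Pearson's r was 0.957 for J 1c with NJ 1d, 0.885 for J 1c with NJ 1a and 0.869 for NJ 1a with NJ 1d. It was 0.821 for J 1a with NJ 1a, 0.792 for J 1a with J 1c and 0.778 for J 1a with NJ 1d. J 1c was thus more like both NJ arrays than like J 1a, and the lowest values were all those of J 1a. These correlations run across genes, which are not independent replicates. The ratio of 3′ to 5′ signal of the Gapdh control probe sets, a sign of RNA length, was 7.61 on J 1a, 1.43 on J 1c, 8.34 on NJ 1a and 7.48 on NJ 1d. That of actin was 5.46, 4.61, 4.75 and 8.46 on the same arrays, and that of the transferrin receptor 1.75, 1.84, 13.7 and 3.35, so that the 3 ratios set different arrays apart. The summed signal of 16 muscle fibre markers was 1096164 on J 1a and 192747 on J 1c, against 881607 on NJ 1a and 612722 on NJ 1d. The highest signal of any probe set that is not a control was 231943, 41086, 184184 and 125534 on the same arrays. Fibre content and a lower top of the scale on J 1c cannot be told apart in these sums. The part of these array differences in the results was not tested.

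Chaperone signals as a whole had a median difference between J and NJ close to that of all genes. In most compartments members lay on both sides of 0, the exceptions being the 4 BAG genes and HSP90 with its single gene. Of the 57 tested genes, 31 had a higher mean in J and 26 a lower one, with a median difference of 0.07. Over all 6774 tested genes 49% were higher in J and the median was −0.01. In such bulk RNA, fewer cells of a type and less RNA per cell cannot be told apart. No member passed the test, and neither did any other probe set. With limma, 0 of 9317 probe sets (0%) had a Benjamini-Hochberg adjusted p under 0.05, and the adjusted p was 0.999 for all 82 tested member probe sets.

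Before adjustment, 1 member gene had a limma p under 0.05 among those higher in J (1.17% of all tested genes) and 1 among those lower (0.841%), and those were Hspb11 and Hspa9. The J signals did not overlap the NJ signals and were higher for 7 member genes, or 12.3%, against 13.4% of all tested genes. They were lower without overlap for 3 member genes, or 5.26%, against 13.1%. These shares are near or below those of all genes. The 7 were Hspa4, Hsph1, Hsp90aa1, Hspb8, Dnajc8, Cct8 and Hspb11, and the 3 were Hspa9, Dnajc11 and Dnajb2. Of these, Hspb11 was dim in NJ and passed the brightness filter only through its J arrays. With so few arrays the smallest two-sided p of an exact permutation test is 0.333, so none was run on single members.

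**Figure D1:**
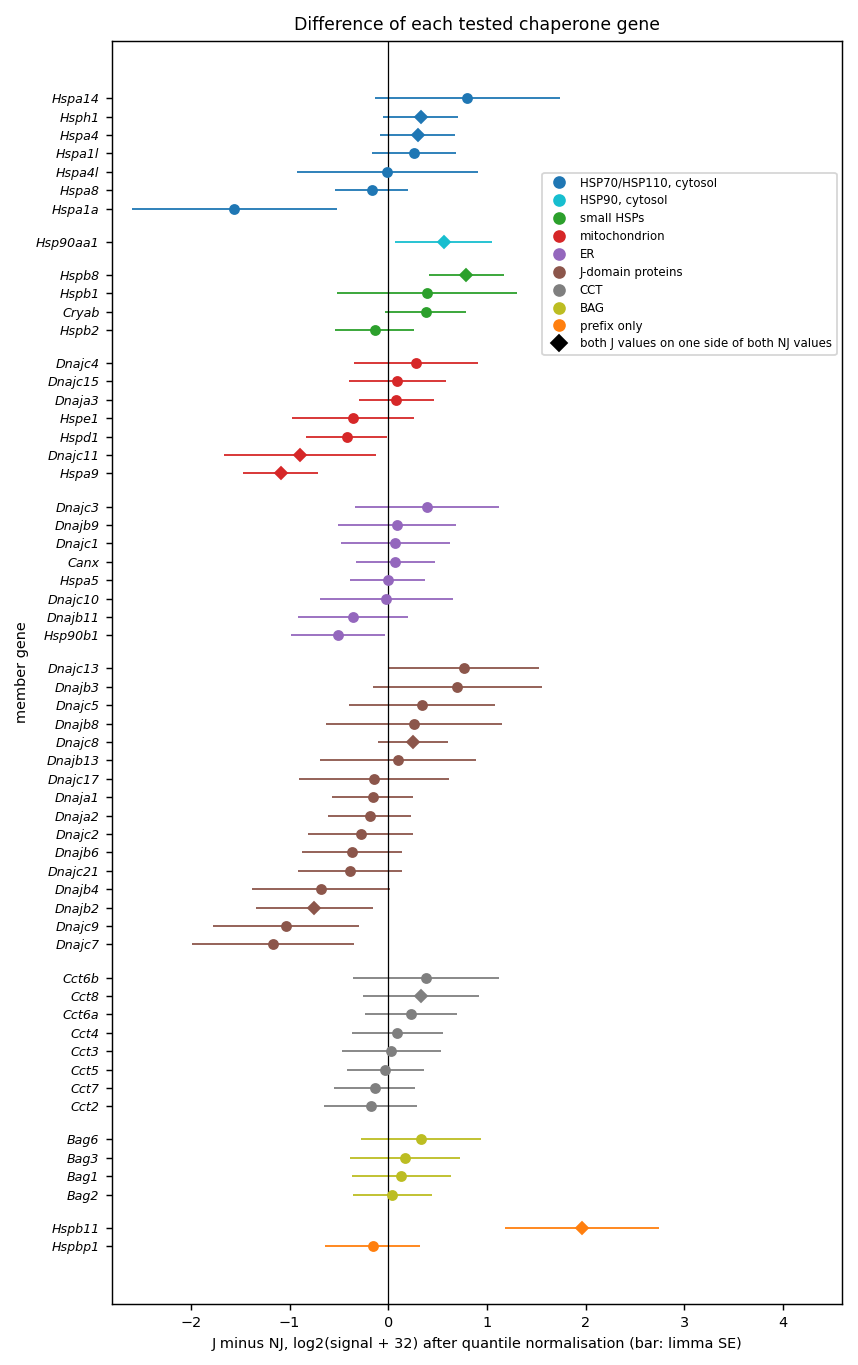
Difference of J minus NJ (x axis, log2 scale) for each of the 57 tested chaperone genes (y axis), by compartment, with bars for the limma standard error and diamonds where the 2 J values do not overlap the 2 NJ values. Hspa9 lies at −1.09, Hspb8 at 0.79 and Hspb11 at 1.96, while most other members lie within their standard error of 0 or close to it.

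Mitochondrial chaperones had a median difference of −0.36, with 3 of 7 tested genes higher and 4 lower in J. Hspa9, the mitochondrial HSP70 that pulls imported proteins into the matrix, had signals of 4462 and 6004 on J arrays, against 13830 and 10431 on NJ arrays. Both J arrays were below both NJ arrays, at 0.47 times the NJ level. The difference was −1.09 ± 0.38 and ranked 43rd of 9317 by unadjusted p. It was −1.52 in the 1a pair, −0.66 in the 1c-1d pair, and between −1.37 and −0.81 with each array left out in turn. Hspa9 has 1 probe set, so no second one could be set beside it.

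Hspd1 and Hspe1 encode HSP60 and HSP10, the barrel and lid of the mitochondrial chaperonin. At its brightest probe set Hspd1 had signals of 9762 and 5824 on J arrays, against 11869 and 10270 on NJ arrays. On the deposited scale J was thus lower on both arrays, but after quantile normalisation the groups overlapped, with a difference of −0.42 ± 0.41. A dimmer probe set of Hspd1 went the other way, at 431 and 485 on J arrays against 311 and 273 on NJ arrays. Hspe1 had signals of 1179 and 3471 on J arrays, against 1466 and 4663 on NJ arrays. It was low on both 1a arrays and high on the other arrays, so that the groups overlapped although each J array was below the NJ array of its number format, by 0.36 in both. Its difference was −0.36 ± 0.62.

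The start sites of these chaperonin genes face away from each other with a short stretch between them, and this stretch is shown because one promoter region serves both subunits. It spans chr1:55087933-55088147 (GRCm38.p6, RefSeq, plus strand, 5′ to 3′), the 215 bases between one RefSeq start of Hspd1, to the left, and that of Hspe1, to the right. Capitals mark heat shock units, the letters GAA or TTC alternating with 2 bases between them, to which heat shock factors bind.
Hspd1-Hspe1: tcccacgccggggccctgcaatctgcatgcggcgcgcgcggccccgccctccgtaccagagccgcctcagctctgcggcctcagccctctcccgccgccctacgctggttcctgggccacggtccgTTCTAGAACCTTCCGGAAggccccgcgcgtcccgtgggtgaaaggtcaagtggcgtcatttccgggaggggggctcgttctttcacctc

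The run in capitals holds 4 alternating units. Pairs were searched as GAANNTTC or TTCNNGAA, each of which reads the same on both strands and can overlap the other, in the 250 bases before each start. A pair was present for 12 of 53 members that have a promoter sequence in the RefSeq table, and for 14.5% of all 27025 genes there. At least 3 units in a row were present for Hspd1, Hspe1 and Dnajb6, and for 0.514% of all genes. At their brightest probe sets the differences of these 3 genes were −0.42, −0.36 and −0.37, none of them past the test. A second tested probe set lay on the other side of 0 for Hspd1 (0.52) and for Dnajb6 (0.12). Cct4, Cryab, Dnajc11, Dnajc2, Dnajc5, Hsp90aa1, Hspa8, Hspa9 and Hspb2 had no entry in that table.

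The remaining mitochondrial members are J-domain proteins. Dnajc11, a protein of the membrane complexes that shape the cristae, was dim, with 164 and 142 on J arrays against 410 and 208 on NJ arrays. Both J values were below both NJ values, and the difference was −0.90 ± 0.77. Dnaja3, whose product Tid1 works with Hspa9 and also binds the receptor kinase MuSK of the neuromuscular synapse, had 2457 and 3868 on J arrays against 2801 and 3088 on NJ arrays. Its groups overlapped, with a difference of 0.08 ± 0.38. Dnajc15, a partner of the import motor, differed by 0.09 ± 0.49 and Dnajc4 by 0.28 ± 0.63, and both overlapped. The median of the 7 genes was −0.17 in the 1a pair and −0.54 in the 1c-1d pair. Its sign turned without NJ 1d (0.10) and when a gene's probe sets were averaged (0.05), which mixes the opposed probe sets of Hspd1.

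Other genes of protein folding and breakdown in mitochondria, 10 of 15 listed and all tested, had 4 higher and 6 lower in J, and the median was −0.24. None passed the test. Timm44, which ties Hspa9 to the import channel of the inner membrane, had signals of 1057 and 694 on J arrays against 2552 and 1410 on NJ arrays. As for Hspa9, both J arrays were below both NJ arrays, with a difference of −1.16 ± 0.49. Grpel2, a nucleotide exchange factor of Hspa9, lay on the other side, with 529 and 256 on J arrays against 89.1 and 146 on NJ arrays (1.42 ± 0.81). Its paralog Grpel1, named after its values were seen, had 713 and 653 on J arrays against 397 and 451 on NJ arrays (0.63 ± 0.62). Phb2, a prohibitin of the inner membrane, had 1758 and 1520 on J arrays against 2277 and 2213 on NJ arrays, and differed by −0.47 ± 0.39.

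**Figure D2:**
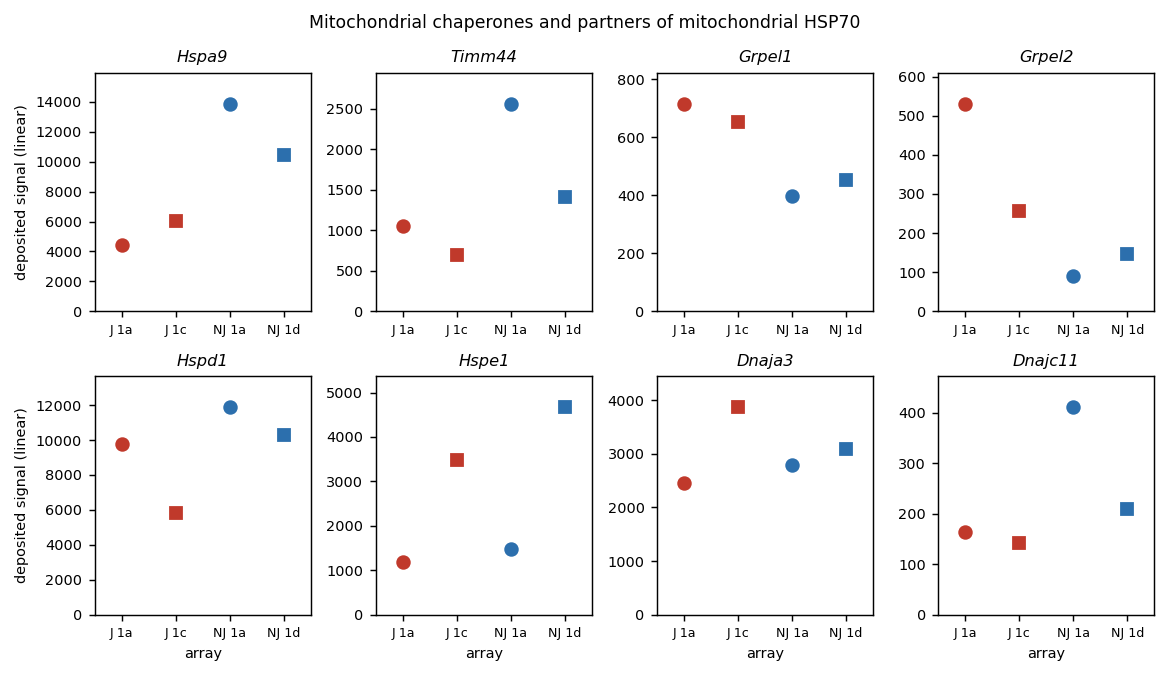
Deposited signal (y axis, linear, from 0, a scale of its own in each panel) on each of the 4 arrays (x axis) for 5 mitochondrial chaperone genes and the HSP70 partners Timm44, Grpel1 and Grpel2; red is J, blue is NJ, circles are the 1a arrays. Hspa9, Timm44 and Dnajc11 are lower on both J arrays, Grpel1 and Grpel2 are higher on both, and Hspe1 follows the number format.

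In the cytosol, HSP70 and HSP110 genes had 4 of 7 tested members higher and 3 lower, their median being 0.26. Hspa8, the constitutive HSP70, had signals of 10446 and 7391 on J arrays against 9931 and 11492 on NJ arrays. The groups overlapped and the difference was −0.17 ± 0.37. The HSP110 genes Hsph1 and Hspa4, exchange factors of HSP70, were slightly higher on both J arrays. Hsph1 had 2553 and 2871 on J arrays against 1903 and 2424 on NJ arrays (0.33 ± 0.38). Hspa4 had 3150 and 3138 on J arrays against 2904 and 2195 on NJ arrays (0.30 ± 0.38) at its brightest probe set, and its 5 tested probe sets lay between 0.07 and 0.60, all on the J side. A further HSP110 gene, Hspa4l, differed by −0.01 ± 0.92. The group's median was 0.03 without NJ 1a and 0.47 without NJ 1d.

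The stress-inducible HSP70 genes were read unevenly. Hspa1a had signals of 81.7 and 893 on J arrays against 1376 and 467 on NJ arrays, so that J 1a was the lowest array and J 1c was between the NJ arrays. Its difference of −1.56 ± 1.04 came from the 1a pair (−3.88), against 0.76 in the 1c-1d pair. Hspa1b, too dim on average to test, went the other way with 478 and 112 on J arrays against 16.2 and 65.8 on NJ arrays. These paralogs are nearly identical in sequence, so which gene a probe set reads is uncertain and no direction is taken from them. Hspa1l, a form best known from testis, differed by 0.26 ± 0.43, and Hspa14, a ribosome-associated HSP70, by 0.80 ± 0.94 with J 1a at 502 and all other arrays between 42.7 and 91.1, and by −0.48 without J 1a. Hspa2 was too dim to test.

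A pair of heat shock units was also found for Hsph1, Hspa1a and Hspa1b. Hsph1 is shown because it was tested and was higher on both J arrays, which is not typical of members with a pair. Of the other tested ones, only Hspb1 (0.39 ± 0.91) had a higher mean in J. Cct2, Cct5, Dnaja1, Dnajb4, Dnajb6, Dnajc10, Hspa1a, Hspd1 and Hspe1 had a lower one at their brightest probe sets. None passed the test, and a link between a pair and the direction was not tested. The 250 bases before one of its RefSeq starts, at chr5:149636316-149636565 on the minus strand of GRCm38.p6, are given with the pair in capitals.
Hsph1: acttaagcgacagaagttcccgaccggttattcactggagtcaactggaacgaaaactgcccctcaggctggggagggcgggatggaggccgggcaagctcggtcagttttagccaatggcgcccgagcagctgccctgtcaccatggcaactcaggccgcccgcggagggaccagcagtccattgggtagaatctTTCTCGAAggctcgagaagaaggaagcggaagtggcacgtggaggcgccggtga

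HSP90 of the cytosol was read by Hsp90aa1 alone, the inducible form that folds myosin in muscle together with Unc45b. It had signals of 1676 and 1786 on J arrays against 813 and 1642 on NJ arrays. Both J arrays were above both NJ arrays, although J 1c and NJ 1d were close. The difference was 0.56 ± 0.49, or 1.06 in the 1a pair and 0.06 in the 1c-1d pair, and it was 0.04 without NJ 1a. A dimmer, untested probe set had 56.8 and 23.6 on J arrays against 304 and 43.6 on NJ arrays. No probe set was named for Hsp90ab1.

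Small heat shock proteins had 3 of 4 tested genes higher in J, and the median was 0.39. Hspb8 acts with the co-chaperone Bag3, the HSP70 Hspa8 and the ubiquitin ligase Stub1 in the pathway that clears damaged filamin from the Z-disc. It had signals of 16139 and 11686 on J arrays against 9882 and 7604 on NJ arrays. Both J arrays were above both NJ arrays, 1.73-fold on average, with a difference of 0.79 ± 0.38 that did not pass the test. It was 0.60 in the 1a pair and 0.99 in the 1c-1d pair, and lay between 0.52 and 1.07 with each array left out. A dimmer probe set of Hspb8 overlapped between groups, at 904 and 604 on J arrays against 320 and 929 on NJ arrays (0.46 ± 0.70).

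Its partners were not higher on both J arrays. Bag3 had signals of 2841 and 6421 on J arrays against 2189 and 7556 on NJ arrays, low on both 1a arrays and high on the others, and differed by 0.17 ± 0.56. Its second probe set differed by 0.20 ± 0.39 with no such step between the formats (2750 and 2442 on J arrays against 2628 and 1922 on NJ arrays). Stub1 had 1213 and 1388 on J arrays against 1913 and 2013 on NJ arrays. It was thus lower on both J arrays (−0.64 ± 0.41), and Sqstm1, the p62 receptor that feeds such clients to autophagy, differed by −0.08 ± 0.44.

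Cryab, the alphaB-crystallin that protects desmin and actin filaments, had signals of 4650 and 6650 on J arrays against 3174 and 6629 on NJ arrays. The groups overlapped after normalisation, with a difference of 0.38 ± 0.41 that was −0.04 without NJ 1a. A dimmer, untested probe set of Cryab had 90.5 and 44.4 on J arrays against 389 and 77.4 on NJ arrays. It went the other way, at −1.25, with groups that overlapped as deposited but not after normalisation. Hspb2, which lies beside Cryab in the genome and binds the myotonic dystrophy kinase, had 14659 and 14876 on J arrays against 22323 and 16826 on NJ arrays. Those values were lower on both J arrays as deposited, but overlapped after normalisation with a difference of −0.14 ± 0.40. Hspb1, or HSP25 in mouse, was uneven at 502 and 73.0 on J arrays against 219 and 88.6 on NJ arrays (0.39 ± 0.91). No probe set was named for Hspb3, Hspb6 or Hspb7.

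**Figure D3:**
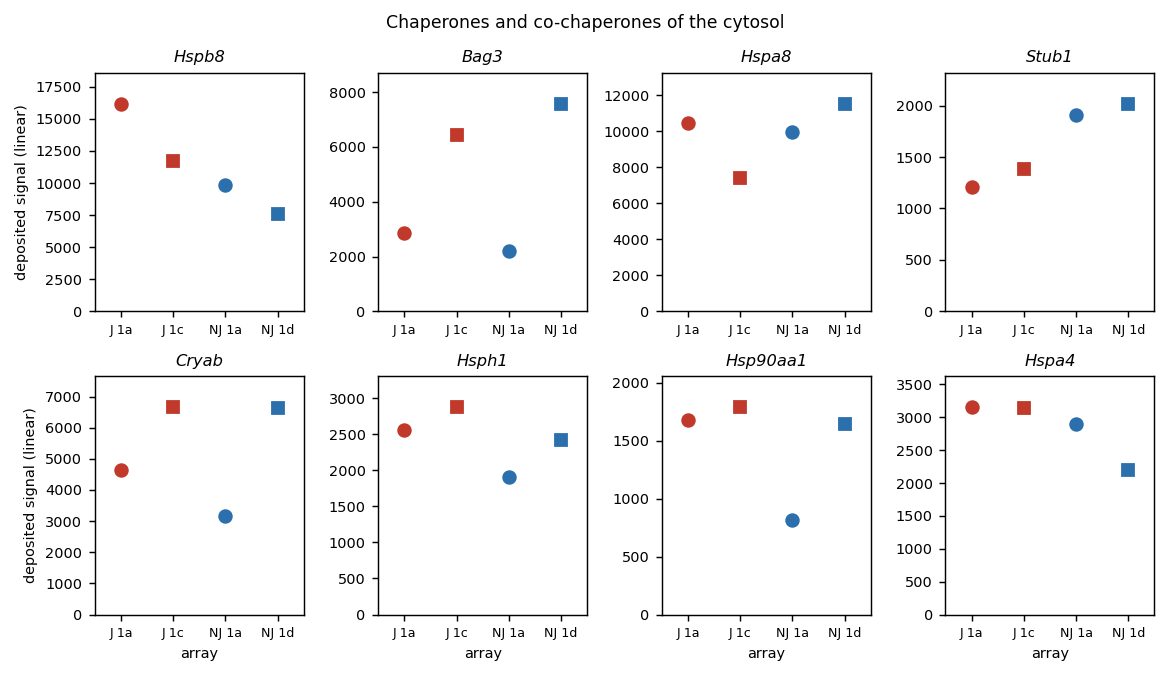
Deposited signal (y axis, linear, from 0, a scale of its own in each panel) on each of the 4 arrays (x axis) for 7 cytosolic chaperone and co-chaperone genes and the ubiquitin ligase Stub1; red is J, blue is NJ, circles are the 1a arrays. Hspb8 is higher on both J arrays and Stub1 lower, while Bag3 and Cryab are low on the 1a arrays of both groups.

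BAG genes, several of whose products open the nucleotide pocket of HSP70, had 4 of 4 tested members above 0 at their brightest probe set. Their median was 0.15, and it was −0.19 without NJ 1a. At these probe sets none had groups that did not overlap. Bag1 had signals of 1947 and 2180 on J arrays against 1137 and 3117 on NJ arrays (0.13 ± 0.50). Bag2, which also restrains Stub1, had 1768 and 1796 on J arrays against 1831 and 1522 on NJ arrays at its brightest probe set (0.04 ± 0.40). A dimmer probe set of Bag2 was lower on both J arrays, at 606 and 792 on J arrays against 2010 and 1664 on NJ arrays, and its −1.44 ± 0.47 ranked first among member probe sets by unadjusted p. Bag6, which guides membrane proteins and faulty proteins in the cytosol, ranged from −0.87 to 0.68 over 4 probe sets.

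J-domain proteins of the cytosol, nucleus and vesicles formed the largest group of members, with 6 of 16 tested genes higher and 10 lower in J, and the median was −0.17. The median was −0.34 in the 1a pair and 0.04 in the 1c-1d pair. Dnajb2, a chaperone rich in neurons that carries clients to the proteasome, had signals of 500 and 544 on J arrays against 1105 and 636 on NJ arrays. Both J arrays were below both NJ arrays, with a difference of −0.75 ± 0.59. Dnajc8, a nuclear protein tied to splicing that is named after its values were seen, was higher on both J arrays after normalisation (0.25 ± 0.35) but not as deposited, and its dimmer probe set differed by −0.61 ± 0.47.

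Several large differences in this group rested on array J 1a. Dnajc7, a cytosolic protein that links HSP70 and HSP90, had 201 and 1299 on J arrays against 1014 and 1204 on NJ arrays. Dnajc9, a chaperone of histones, had 257 and 1013 on J arrays against 1303 and 742 on NJ arrays. In both genes J 1a was by far the lowest array and J 1c was among the NJ values or above them. Dnajc7 differed by −1.17 ± 0.82 and by 0.17 without J 1a, and Dnajc9 by −1.04 ± 0.74 and by −0.02 without J 1a. Dnajc13, a protein of endosomes, differed by 0.77 ± 0.76 because NJ 1a was low (609 and 616 on J arrays against 207 and 560 on NJ arrays), and by −0.03 without NJ 1a.

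Dnajc5 encodes cysteine string protein, which keeps the release machinery of nerve terminals folded. It had signals of 652 and 266 on J arrays against 352 and 293 on NJ arrays. J 1a was the highest and J 1c the lowest array, and the difference was 0.34 ± 0.74. Dnaja1 and Dnaja2, general partners of Hspa8, differed by −0.16 ± 0.41 and −0.19 ± 0.42. Dnajb6, a Z-disc protein whose human gene is mutated in a limb-girdle muscular dystrophy, differed by −0.37 ± 0.51 at one probe set, whereas another gave 0.12 ± 0.48. The remaining tested genes, Dnajb13, Dnajb3, Dnajb4, Dnajb8, Dnajc17, Dnajc2 and Dnajc21, lay between −0.68 and 0.70 with overlapping groups.

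The chaperonin CCT, the cytosolic chamber that folds actin and tubulin, had 5 of 8 tested genes higher and 3 lower in J, and the median was 0.06. At the brightest probe sets all 8 differences lay between −0.18 and 0.38. Cct8 had signals of 753 and 627 on J arrays against 529 and 522 on NJ arrays, the one subunit gene with both J arrays above both NJ arrays (0.33 ± 0.59). Cct2 differed by −0.18 ± 0.47, Cct6a by 0.23 ± 0.47 and Cct6b, a testis form, by 0.38 ± 0.74. The subunits did not keep their sign between the array pairs. The median was 0.27 in the 1a pair and −0.15 in the 1c-1d pair, and 1 of 8 genes had the same sign in both, against 49.5% of all tested genes and 27 of 57 members. A list of Tcp1, the gene of the first subunit, prefoldin, which hands clients to CCT, and phosducin-like and related proteins had 6 genes tested of 10 listed, namely Tcp1, Pfdn2, Pfdn5, Pfdn6, Vbp1 and the phosducin-like Pdcl3. Of these 2 were higher and 4 lower, and the median was −0.26. None passed the test. Pfdn2 and Pfdn6 were lower on both J arrays, at −0.60 ± 0.43 and −0.50 ± 0.39, and Vbp1 differed by −0.69 ± 0.52.

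**Figure D4:**
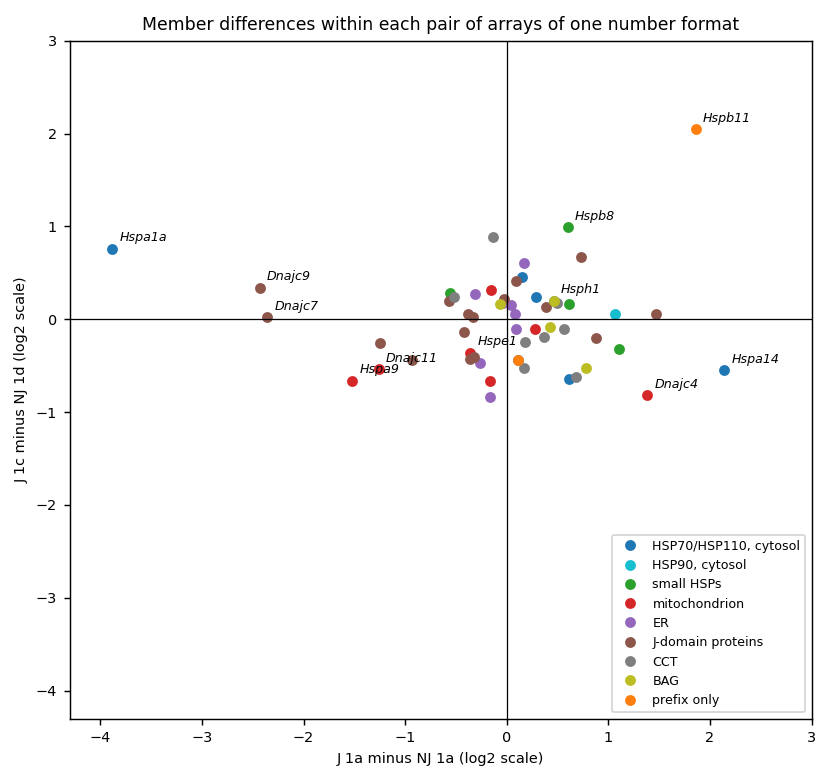
Difference in the 1a pair (x axis, J 1a minus NJ 1a, log2 scale) against that in the 1c-1d pair (y axis, log2 scale) for the 57 tested chaperone genes, coloured by compartment. Of these, 27 lie on the same side of 0 on both axes, among them Hspa9, Hspb8 and Hspb11, while Hspa1a, Dnajc7 and Dnajc9 lie far out on the x axis alone.

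Chaperones of the endoplasmic reticulum had 4 of 8 tested genes higher and 4 lower in J, a median of 0.03 and 0 genes whose groups did not overlap. Over all tested genes 13.4% were higher and 13.1% lower without overlap, and the BAG genes also had 0 such genes. The median size of the difference, regardless of sign, was 0.08, against 0.28 over all tested members and 0.39 over all tested genes. It was also small for BAG genes (0.15), CCT (0.16) and a list of heat shock factors and stress genes (0.05). Hspa5, the HSP70 of this compartment also called BiP, had signals of 2315 and 3034 on J arrays against 2238 and 3215 on NJ arrays. The J values lay between the NJ values and the difference was −0.005 ± 0.38. Canx, the membrane lectin calnexin, had 1968 and 1757 on J arrays against 1860 and 1613 on NJ arrays (0.07 ± 0.40). Hsp90b1, the HSP90 of this compartment also called GRP94, had 1169 and 1560 on J arrays against 1278 and 2818 on NJ arrays. NJ 1d stood above the other arrays, and the difference of −0.51 ± 0.48 was 0.02 without it.

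At their brightest probe sets the J-domain partners of Hspa5 had differences smaller than their standard errors. Dnajb9 differed by 0.09 ± 0.60, Dnajc1 by 0.07 ± 0.55, Dnajc10, a reductase, by −0.02 ± 0.67, and Dnajb11 by −0.36 ± 0.56. Dnajc3, which also restrains the stress kinase PERK, differed by 0.39 ± 0.73 at its brightest probe set. Other tested ones gave 0.42 ± 0.79 and 1.50 ± 0.96. Calr, the soluble lectin calreticulin, was too dim to test, with 206 and 39.0 on J arrays against 47.0 and 29.8 on NJ arrays.

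The choice of members did not use promoter sequence, but the element searched here is named for stress of the endoplasmic reticulum. Its counts describe the promoters and were not tested. An ER stress element, the letters CCAAT and CCACG with 9 bases between them on either strand, was found in the 250 bases before the start for 5 of 9 genes of the endoplasmic reticulum, namely Calr, Canx, Dnajc3, Hsp90b1 and Hspa5. It was found for 0 of 44 other members with a promoter sequence and for 0.13% of all genes in the table. The sequences of the HSP70 and the HSP90 of this compartment are given (GRCm38.p6, RefSeq, 5′ to 3′ on the strand of the gene), at chr2:34771840-34772089 on the plus strand and chr10:86705445-86705694 on the minus strand. Capitals mark the element with the bases inside it, which occurs once in Hspa5 and on each strand once in Hsp90b1. A match is a description of these letters and not a measured binding site.
Hspa5: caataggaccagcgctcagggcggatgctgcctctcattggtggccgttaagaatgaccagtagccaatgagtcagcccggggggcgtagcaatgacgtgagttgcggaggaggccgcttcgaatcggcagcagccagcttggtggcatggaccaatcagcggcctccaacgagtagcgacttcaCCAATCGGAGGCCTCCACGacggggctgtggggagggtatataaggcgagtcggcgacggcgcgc
Hsp90b1: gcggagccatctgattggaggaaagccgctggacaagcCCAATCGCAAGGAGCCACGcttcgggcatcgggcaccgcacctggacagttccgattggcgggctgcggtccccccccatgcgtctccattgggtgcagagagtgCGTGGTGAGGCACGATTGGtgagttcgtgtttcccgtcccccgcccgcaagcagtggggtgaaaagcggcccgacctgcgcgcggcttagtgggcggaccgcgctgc

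Other genes of folding and stress sensing in the endoplasmic reticulum, 18 tested of 26 listed, had 12 higher and 6 lower in J, and the median was 0.17. None passed the test. Atf6, the sensor whose cut form binds such elements, had signals of 553 and 259 on J arrays against 35.6 and 156 on NJ arrays (1.85 ± 0.90). Serpinh1, the collagen chaperone HSP47, had 1315 and 398 on J arrays against 98.9 and 367 on NJ arrays (1.76 ± 0.90). Both genes were higher on both J arrays, but mostly through the 1a pair. Atf6 differed by 3.17 there and by 0.52 in the 1c-1d pair, and Serpinh1 by 3.51 and 0.02. Atf6 was dim in NJ (normalised mean 6.84, against 8.69 in J) and passed the brightness filter only through its J arrays. Pdia6, a disulfide isomerase, stood out on J 1a alone (747 and 81.2 on J arrays against 79.8 and 88.7 on NJ arrays) and differed by 1.35 ± 0.97. The summed signal of 7 fibroblast markers, cells that make collagen, was 109179 and 43236 on J arrays against 60418 and 51846 on NJ arrays, with 5 of 7 higher in J, and its part in these differences was not tested.

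Hspb11 and Hspbp1 matched the symbol rule by their names without being small heat shock proteins of the usual kind. Hspb11, the protein IFT25 of intraflagellar transport, had the largest positive difference of the tested members. Its signals were 559 and 365 on J arrays against 133 and 53.2 on NJ arrays. Both J arrays were above both NJ arrays, 3.88-fold on average, with a difference of 1.96 ± 0.78 that was 1.86 in the 1a pair and 2.05 in the 1c-1d pair. It did not pass the test. Hspb11 was dim in NJ, with a normalised mean of 6.95 against 8.9 in J. It passed the brightness filter only through its J arrays, so its place among the tested members is no support for a difference. Hspbp1, an exchange factor of HSP70, differed by −0.16 ± 0.48 with overlapping groups.

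Outside the members, 11 other co-chaperones of HSP70 and HSP90 were tested of 16 listed, 8 higher and 3 lower in J, and the median was 0.10. Beside Stub1, Stip1, the adaptor that joins HSP70 to HSP90, differed by 1.23 ± 0.89, mainly because NJ 1a was low (693 and 311 on J arrays against 93.6 and 333 on NJ arrays). Fkbp5, a glucocorticoid-responsive immunophilin of HSP90, differed by 0.75 ± 0.58, mainly because J 1a was high (2477 and 848 on J arrays against 928 and 799 on NJ arrays). Heat shock factors and stress genes, 4 tested of 8 listed, had 2 higher and 2 lower, and the median was −0.04. Hmox1, the stress-induced heme oxygenase, differed by −0.31 ± 0.53. None of either list passed.

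Probe sets of one gene did not always tell the same story. Of 17 member genes with several tested probe sets, 7 had probe sets on both sides of 0, namely Bag2, Bag6, Cct3, Dnajb3, Dnajb6, Dnajc8 and Hspd1. Cct3, for example, differed by 0.03 at its brightest probe set, whereas its dimmest tested one gave −1.27. The suffixes f, s, g, r or i in the probe set names mark designs that share probes with other transcripts or relax the design rules, and 27 of the 92 member probe sets carry one. Besides Hspa1b, Hspa2 and Calr, Dnajb1, the main inducible J-domain partner of HSP70, and Dnajb5 were too dim to test. Dnajb1 had signals of 18.7 and 144 on J arrays against 209 and 168 on NJ arrays.

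**Figure D5:**
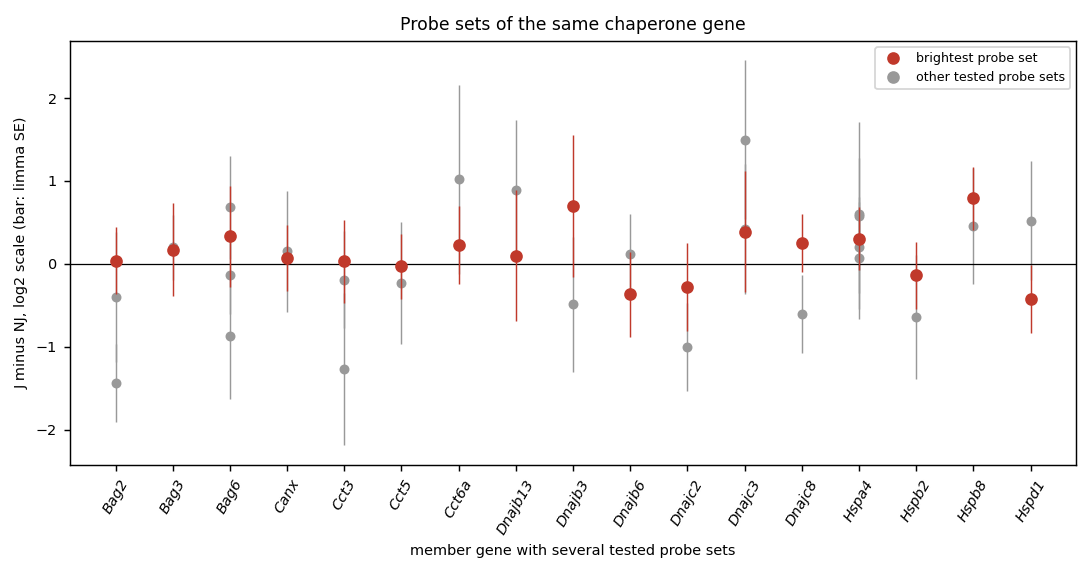
Difference of J minus NJ (y axis, log2 scale, bars for the limma standard error) at each tested probe set of the 17 chaperone genes with several (x axis), the brightest in red and the others in grey. Hspa4 and Hspb8 keep their sign over all their tested probe sets, while Bag2, Bag6, Cct3 and Hspd1 do not.

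Of 16 skeletal muscle markers, 14 were bright enough to test, 7 of them higher and 7 lower in J. The 3 with the smallest unadjusted p, Atp2a1, Myh4 and Tnnc2, were lower in J, at −1.31 ± 0.80, −1.13 ± 0.72 and −2.18 ± 1.49. Their groups overlapped, and J 1c was the lowest array. They differed by −0.14, −0.13 and −0.07 in the 1a pair, and by −2.48, −2.14 and −4.28 in the 1c-1d pair. Acta1, the skeletal actin, had signals of 207533 and 32990 on J arrays against 123803 and 87672 on NJ arrays (0.21 ± 0.54). Tnni1, the troponin I of slow fibres, was dim at 294 and 252 on J arrays against 291 and 147 on NJ arrays (0.27 ± 0.77). Markers of other cells that the tissue can hold were counted beside them, and their part in the results was not tested. Immune markers had 5 of 8 tested genes higher in J (median 0.04), endothelial markers 2 of 7 (−0.14), fibroblast markers 5 of 7 (0.34), Schwann cell markers 1 of 5 (−0.27), adipocyte markers 1 of 3 (−0.06) and blood markers 2 of 2 (0.32). Single markers differed more, without overlap. Postn (3.43 ± 0.81), S100a8 (2.09 ± 0.75), Adipoq (1.90 ± 0.59) and Vwf (1.87 ± 0.72) were higher in J, and Fcer1g (−2.55 ± 0.82) was lower. Postn, S100a8 and Fcer1g were dim in the group where they were lower. Each of their lists also held markers on the other side of 0, and no marker passed the test. The summed signal of 11 immune markers was 3073 and 4274 on J arrays against 4618 and 4237 on NJ arrays.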

How the data were processed

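Per the labels, total RNA of murine skeletal muscle was measured on 4 arrays. The authors deposited 1 linear intensity per probe set and array; how they made it is not given in the sources used here. All 4 columns have a mean of 800.5 or 800.6 after trimming 2% at each end. From the titles, 2 arrays are J and 2 NJ. Gene names came from the platform's gene table, and a check against RefSeq (GRCm38.p6) changed 0 of them.

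Intensities of all 12488 probe sets were taken as log2(value + 32) and quantile normalised. The 66 control probe sets were left out, and the 9317 others above the 25th percentile of the mean over all arrays were tested with limma 3.58.1 in R 4.3.3 (lmFit, eBayes with trend, 2 residual degrees of freedom), with Benjamini-Hochberg adjustment at 0.05. Fit and motif search were tested on simulated data. The brightest tested probe set stood for a gene. Counts and medians of lists carry no test. The rule for naming picked 30 core genes and the 4 smallest unadjusted p per compartment. These are given with their signals, or with only a difference or range. Core genes without a probe set or too dim to test are named as such. Other members are given by difference or range. Up to 3 genes of each related list were named by smallest unadjusted p, with some others beside them. The members, compartments and lists were chosen with earlier results of these data known. Figures used matplotlib 3.10.9 in Python 3.11.15. The number of arrays limits the precision.

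Alternatives were the deposited scale, median centring, pseudocounts of 1 and 100, no filter or one at the median, no variance trend, a number-format term, each array left out, and averaging a gene's probe sets.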

Additional observations from a re-analysis of the deposited data

How the results depend on the processing

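With limma, the count of probe sets past an adjusted p of 0.05 was 0 in the setting reported, with 199 of 9317 at an unadjusted p under 0.05. It was 0 under every alternative run, each array left out included, except with a number-format term, which called 8 (4 higher, 4 lower) and left 1 residual degree of freedom. No member was among the 8, the lowest adjusted p of a member under that term being 0.387 for Hspa9. The labels alone do not give 2 pairs, because J and NJ share only the replicate label 1a. The number-format term sets J 1a beside NJ 1a and J 1c beside NJ 1d, as a fit with 2 pairs would.

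Of 37 tested members picked by the rule for naming, 9 kept their sign under every alternative run. These were Cct8, Dnajb2, Dnajc11, Hsp90aa1, Hspa4, Hspa9, Hspb11, Hspb8 and Hsph1. In all 9, the J values did not overlap the NJ values. This alone fixes the sign within each array pair and with each array left out, so it is no further support. Over all tested genes, 13.4% were higher and 13.1% lower without overlap. No change of scale, pseudocount, filter or variance prior turned a sign, nor did the number-format term. Averaging a gene's probe sets, an alternative chosen after seeing the data and open to 10 of the members, turned Bag2 (−0.60) and Hspd1 (0.05). In the J 1a minus NJ 1a pair alone, 7 members had the other sign, Bag2 (−0.07), Cct2 (0.17), Cct6b (−0.14), Dnaja3 (−0.16), Hspa5 (0.09), Hspa8 (0.11) and Hspbp1 (0.11). In the J 1c minus NJ 1d pair alone, 11 did, Bag1 (−0.52), Bag3 (−0.08), Cct6a (−0.10), Dnaja1 (0.06), Dnajc5 (−0.20), Dnajc7 (0.02), Dnajc9 (0.34), Hspa14 (−0.55), Hspa1a (0.76), Hspb1 (−0.32) and Hspb2 (0.28). Leaving out 1 array turned the sign of 26 members, and the cause was not tested. With each array left out, differences ranged from −0.56 to 0.81 for Bag1, −0.10 to 0.18 for Bag2, −0.62 to 0.96 for Bag3, −0.37 to 1.03 for Bag6, −0.06 to 0.19 for Canx, −0.43 to 0.08 for Cct2, −0.29 to 0.74 for Cct6a, −0.28 to 1.03 for Cct6b and −0.04 to 0.81 for Cryab. They ranged from −0.31 to 0.003 for Dnaja1, −0.18 to 0.34 for Dnaja3, −0.73 to 0.004 for Dnajb11, −0.39 to 0.57 for Dnajb9, −0.03 to 1.56 for Dnajc13, −0.41 to 1.18 for Dnajc3, −0.14 to 0.83 for Dnajc5 and −2.51 to 0.17 for Dnajc7. The ranges were −1.03 to 0.02 for Hsp90b1, −0.48 to 2.07 for Hspa14, −3.18 to 0.07 for Hspa1a, −0.22 to 0.21 for Hspa5, −0.43 to 0.10 for Hspa8, −0.64 to 1.43 for Hspb1, −0.38 to 0.10 for Hspb2, −0.42 to 0.09 for Hspbp1 and −1.12 to 0.40 for Hspe1.

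Several compartment medians moved by more than the spread between arrays. With each array left out they ranged from −0.11 to 0.07 for all members, 0.03 to 0.47 for cytosolic HSP70 and HSP110, −0.57 to 0.10 for mitochondria, −0.21 to 0.24 for CCT and −0.19 to 0.36 for BAG genes. Between the 1a arrays the median was 0.61 for small heat shock proteins, −0.17 for mitochondria, 0.27 for CCT and 0.44 for BAG genes, and between J 1c and NJ 1d it was −0.54 for mitochondria and −0.15 for CCT. The mitochondrial median was −0.14 with the filter at the median of brightness, which leaves fewer genes, and 0.05 with the mean of all probe sets. The median of Hspb11 and Hspbp1 was 1.06 with a pseudocount of 1, 0.68 with one of 100 and −0.16 with the filter at the median, which leaves Hspbp1 alone.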
